A study of Mus musculus with 2 samples.

Results

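The Myc and Max network was described here by 10 genes, taken by symbol from the 47643 gene IDs of the count files through the GENCODE M21 annotation. They comprise the 3 Myc paralogs Myc, Mycn and Mycl, the shared partner Max, and 6 antagonists, Mxd1, Mxd3, Mxd4, Mxi1, Mnt and Mga. All 10 were found in both libraries. The RNA came from E14 mouse embryonic stem cells, a blastocyst-derived line of the 129/Ola background, and polyadenylated transcripts were sequenced. The genotype on the labels is a joint loss of Ago1 and Ago2, the genes of a pair of Argonaute proteins that carry microRNAs to their target transcripts. The cells were kept on plates coated with 0.2% gelatine in medium with 15% serum and 100 U/mL LIF, a cytokine that sustains self-renewal. The series held 2 libraries of this 1 genotype, called replicate 1 and replicate 2 as in the labels, which do not say whether they came from separate cultures or clones. Cells with intact Ago1 and Ago2 were not analysed here, and the values describe the knockout cells without measuring what the knockout did. The gene counts do not check the genotype either: Ago1 had 47.8 TPM in replicate 2 and 24.1 TPM in replicate 1, and Ago2 25.3 TPM in replicate 2 and 24.4 TPM in replicate 1.

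Proteins of this network are transcription factors of the basic helix-loop-helix leucine zipper class. MYC, MYCN and MYCL bind DNA as dimers with MAX at the E-box, a short palindromic motif, and favour transcription of genes for growth, ribosome production and metabolism. The MXD proteins, MXI1 (also known as MXD2), MNT and MGA compete for MAX and bind the same motif, and most of them recruit co-repressors with histone deacetylases. In mouse embryonic stem cells MYC and MYCN are known for supporting self-renewal and proliferation, and MAX and MGA for holding germ cell genes silent.

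The libraries held 29789560 gene counts in replicate 2 and 34798975 in replicate 1, so that 1 count equals 0.0336 CPM in replicate 2 and 0.0287 CPM in replicate 1 (CPM is the count relative to the library total). Levels between genes are given in TPM, counts per length of merged exons scaled to the same total in each library. Of 21620 protein-coding genes, 12530 (58.0%) reached 1 CPM in both libraries, with a median of 2.94 TPM in replicate 2 and 3.20 TPM in replicate 1. All 8 markers of embryonic stem cells passed this level. Most markers of other types were low. Of 8 fibroblast genes, 3 reached 1 CPM in both (summed level 24.1 TPM in replicate 2 and 25.7 TPM in replicate 1), with no count for Col3a1, Lum and Postn. Thy1 made up most of that sum, at 21.2 TPM in replicate 2 and 22.8 TPM in replicate 1, a level like that of Myc. Of the other lists, 1 of 5 genes of primitive endoderm, 2 of 4 of neuroectoderm, 0 of 4 of mesoderm and 0 of 4 of trophoblast reached 1 CPM in both. The summed level of each of these 4 lists was 0.511 to 3.61 TPM in replicate 2 and 0.705 to 4.70 TPM in replicate 1, with no count for Olig2, Dcx and Tpbpa. In bulk RNA such as this, fewer cells of a type and less RNA per cell cannot be told apart.

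All 10 members were expressed at 1 CPM or more in both libraries. Their levels ran from Mycn, at 104 ± 15.1 TPM (SD, n = 2), to Mxd4, at 2.87 ± 0.783 TPM. In TPM the order was Mycn, Max, Mga, Mnt, Mxi1, Myc, Mxd3, Mycl, Mxd1 and Mxd4. The libraries of no 2 neighbours in this order overlapped, although the order changes with the choice of gene length, as described below. Together the 10 genes summed to 360.0 TPM in replicate 2 and 333 TPM in replicate 1.

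**Figure D1:**
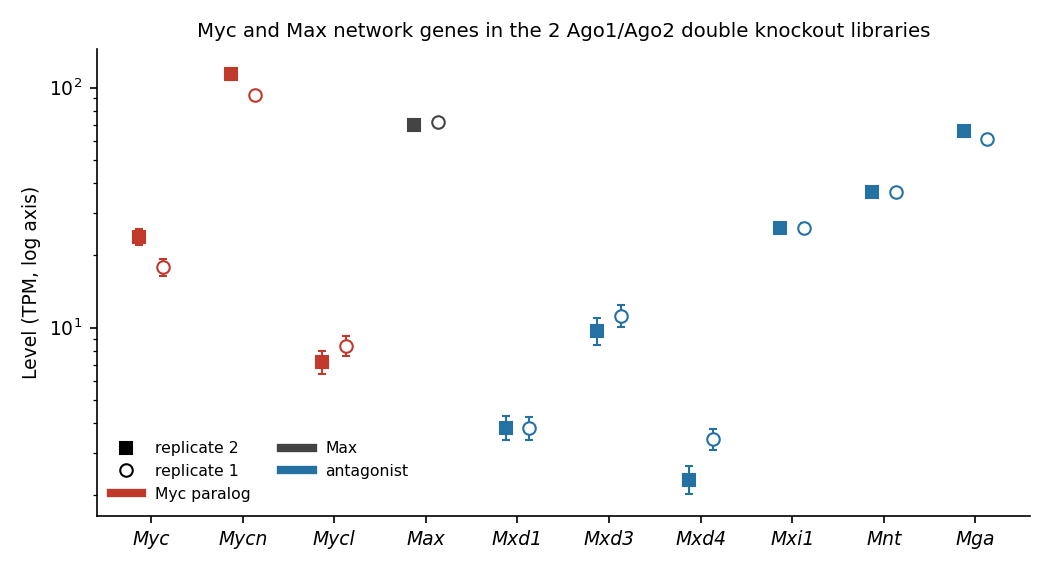
Level of each network gene in TPM (log axis) in replicate 2 (filled squares) and replicate 1 (open circles), with 95% exact Poisson intervals that cover counting error only; Myc paralogs are red, Max is grey and antagonists are blue. Mycn is the highest in both libraries and Mxd4 the lowest, at 2.32 TPM in replicate 2 and 3.43 TPM in replicate 1.

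Among the paralogs, Mycn was the main transcript. Mycn (chromosome 12, 12936093 to 12941914 of GRCm38, minus strand), known from the developing embryo and from human neuroblastoma, had 4075 counts or 114 TPM in replicate 2 and 3851 counts or 92.8 TPM in replicate 1. It stood above 94.9% of protein-coding genes in replicate 2 and 93.6% in replicate 1. Myc (chromosome 15, 61985391 to 61990374, plus strand), the best studied paralog, had 701 counts or 23.8 TPM in replicate 2 and 610 counts or 17.8 TPM in replicate 1. Mycl (chromosome 4, 122995652 to 123002485, plus strand), first known from human lung cancer, had 313 counts or 7.16 TPM in replicate 2 and 428 counts or 8.42 TPM in replicate 1. The 3 paralogs thus lay far apart, and none of their values overlapped between genes.

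Mycn exceeded Myc by 4.79 times in replicate 2 and 5.21 times in replicate 1, in TPM. Of the paralogs' summed TPM, Mycn held 78.7%, Myc 16.4% and Mycl 4.93% in replicate 2, and Mycn 78.0%, Myc 15.0% and Mycl 7.07% in replicate 1. As a share of counts, with Clopper-Pearson 95% intervals, Mycn took 80.1% (79.0 to 81.2) in replicate 2 and 78.8% (77.6 to 79.9) in replicate 1. Myc took 13.8% (12.8 to 14.8) in replicate 2 and 12.5% (11.6 to 13.4) in replicate 1. Mycl took 6.15% (5.51 to 6.85) in replicate 2 and 8.75% (7.98 to 9.58) in replicate 1. The intervals of the libraries overlapped for Mycn and Myc and did not for Mycl. A share also depends on the counts of the other paralogs. Mycl by itself was not called between the libraries by the exact binomial test described below (adjusted p = 0.109).

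Other Myc-related loci were low. Bmyc, a gene related to the amino end of Myc, had 5.45 TPM in replicate 2 and 5.66 TPM in replicate 1, but 60.9% of the 50-base stretches of its transcripts also occur in other genes, so its count is uncertain. Pvt1, a long noncoding RNA next to Myc, had 6.03 TPM in replicate 2 and 5.15 TPM in replicate 1, a ratio that was not called (adjusted p = 0.0645). Mycs had no count in either library.

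Max (chromosome 12, 76937269 to 76962201, minus strand) encodes the dimer partner shared by the other members. It had 2726 counts or 69.97 TPM in replicate 2 and 3264 counts or 72.1 TPM in replicate 1. These values lie close together, and its level corresponds to 24.1% in replicate 2 and 27.6% in replicate 1 of the summed TPM of the 9 genes whose products bind it. Mycn alone stood at 1.63 times Max in replicate 2 and 1.29 times in replicate 1 with merged exons. That direction rested on the length used: with the longest transcript the ratio was 1.09 in replicate 2 and 0.857 in replicate 1, and with the longest coding sequence 0.520 in replicate 2 and 0.410 in replicate 1.

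Among the antagonists, Mga and Mnt were the most abundant with merged exons and the Mxd genes the least. With coding length Mxi1 was the highest of them, at a mean of 83.7 TPM, against 44.5 TPM for Mga and 40.0 TPM for Mnt. Mga (chromosome 2, 119897228 to 119969581, plus strand), which encodes a very large protein with both a T-box and a helix-loop-helix domain, had 10981 counts or 66.1 TPM in replicate 2 and 11738 counts or 60.8 TPM in replicate 1. Mnt (chromosome 11, 74830920 to 74845725, plus strand), a broadly expressed MAX partner, had 1845 counts or 36.8 TPM in replicate 2 and 2133 counts or 36.6 TPM in replicate 1. Mxi1 (chromosome 19, 53310518 to 53375810, plus strand) had 1925 counts in replicate 2 and 2240 in replicate 1, or 26.1 TPM in each. The libraries nearly coincided for Mnt and Mxi1, while Mga was higher in replicate 2.

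The Mxd genes, whose products, apart from MXD3, are known for rising as cells leave the cycle and differentiate, were all below Myc in TPM. Mxd3 (chromosome 13, 55325168 to 55329823, minus strand), the member known from S phase, had 248 counts or 9.67 TPM in replicate 2 and 334 counts or 11.2 TPM in replicate 1. Mxd1 (chromosome 6, 86647042 to 86669161, minus strand) had 293 counts or 3.83 TPM in replicate 2 and 339 counts or 3.81 TPM in replicate 1. Mxd4 (chromosome 5, 34173883 to 34187720, minus strand) had 213 counts or 2.32 TPM in replicate 2 and 366 counts or 3.43 TPM in replicate 1. With merged exons Mxd4 was the lowest member in both libraries. It was also the one antagonist that stood lower in replicate 2 by more than counting error.

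The strand setting of the authors' counting is not given in the sources used here, so reads of genes on the opposite strand cannot be told apart. Exons overlap on opposite strands between Mxd3 and Prelid1 (105 bases), Mxd4 and Gm42846 (514 bases), and Mxi1 and Gm10197 (194 bases). These 3 genes share 2.22%, 5.39% and 2.13% of their 50-base stretches with other genes, against under 1% for each of the other 7 members. Stretches were matched on both strands, so these shares take in the overlaps just named and are not a separate limit.

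Set against each other, paralogs and antagonists were of like size. The paralogs summed to 145 TPM in replicate 2 and 119 TPM in replicate 1, and the antagonists to 145 TPM in replicate 2 and 142 TPM in replicate 1. The ratio was 1.00 in replicate 2 and 0.839 in replicate 1 (0.921 ± 0.116, SD, n = 2). The antagonist sum moved by 2.05 TPM (SD) between libraries and the paralog sum by 18.5 TPM beside an SD of 15.1 TPM for Mycn alone. In replicate 2, Mga held 45.7% of the antagonist sum, Mnt 25.4%, Mxi1 18.0%, Mxd3 6.68%, Mxd1 2.64% and Mxd4 1.60%. In replicate 1, Mga held 42.8%, Mnt 25.8%, Mxi1 18.4%, Mxd3 7.89%, Mxd1 2.68% and Mxd4 2.42%. These shares are for merged exons. With coding length Mxi1 held the most, 38.9% in replicate 2 and 38.1% in replicate 1. Mga then held 21.6% in replicate 2 and 19.4% in replicate 1. Without Mga the ratio was 1.85 in replicate 2 and 1.47 in replicate 1 with merged exons, 0.853 in replicate 2 and 0.676 in replicate 1 with coding length, and 1.12 in replicate 2 and 0.903 in replicate 1 in CPM. With Mga and coding length it was 0.669 in replicate 2 and 0.544 in replicate 1. With Mga in CPM, which is not scaled to length and so weights the long Mga transcript most, it was 0.328 in replicate 2 and 0.285 in replicate 1. Whether paralogs or antagonists are the larger group in RNA therefore depends on Mga and on the scale.

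**Figure D2:**
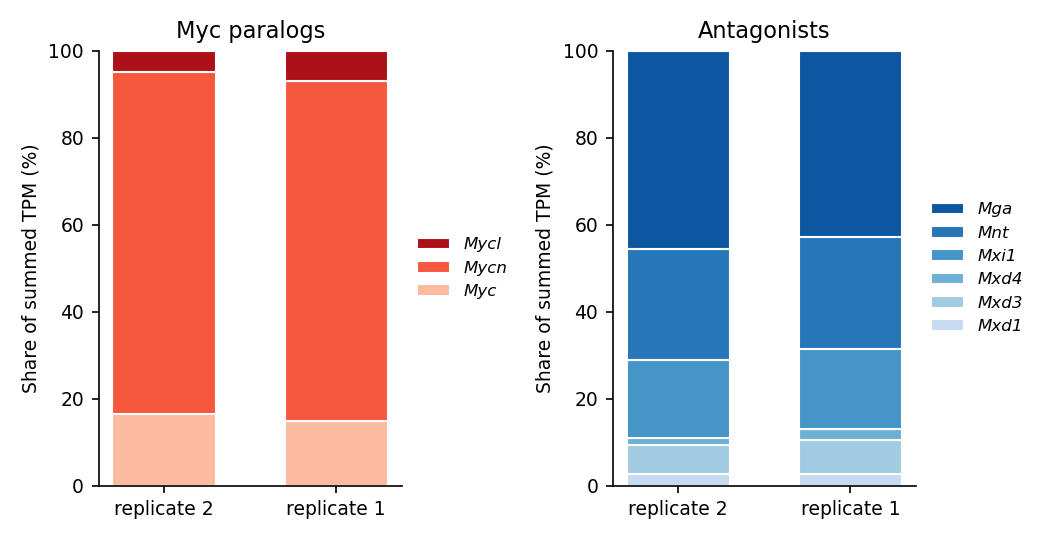
Share of the summed TPM (%, merged exons) held by each Myc paralog (left panel) and by each antagonist (right panel) in replicate 2 and replicate 1. Mycn fills 78.7% of the paralog bar in replicate 2 and 78.0% in replicate 1, and Mga 45.7% of the antagonist bar in replicate 2 and 42.8% in replicate 1.

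Levels per length moved with the transcript model for most members. Max averaged 71.0 TPM with merged exons (3598 bases), 103.5 TPM with its longest transcript (1942 bases) and 221 TPM with its longest coding sequence (483 bases). Mxi1 averaged 26.1, 27.8 and 83.7 TPM on the same 3 lengths, Mxd1 3.82, 4.55 and 16.5 TPM, and Mxd4 2.87, 4.14 and 16.2 TPM. Mga averaged 63.4, 55.0 and 44.5 TPM, Mnt 36.7, 29.1 and 40.0 TPM, Mxd3 10.4, 11.2 and 16.6 TPM, and Mycl 7.79, 7.07 and 11.9 TPM. Mycn stayed between 100.4 and 104 TPM and Myc between 17.3 and 20.8 TPM. With coding length the order became Max, Mycn, Mxi1, Mga, Mnt, Myc, Mxd3, Mxd1, Mxd4 and Mycl. Only neighbours in an order were compared, and here the libraries of Myc and Mxd3, Mxd3 and Mxd1, and Mxd1 and Mxd4 overlapped. With the longest transcript those of Max and Mycn and of Mxd1 and Mxd4 did. The count files do not tell which transcripts the cells used.

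**Figure D3:**
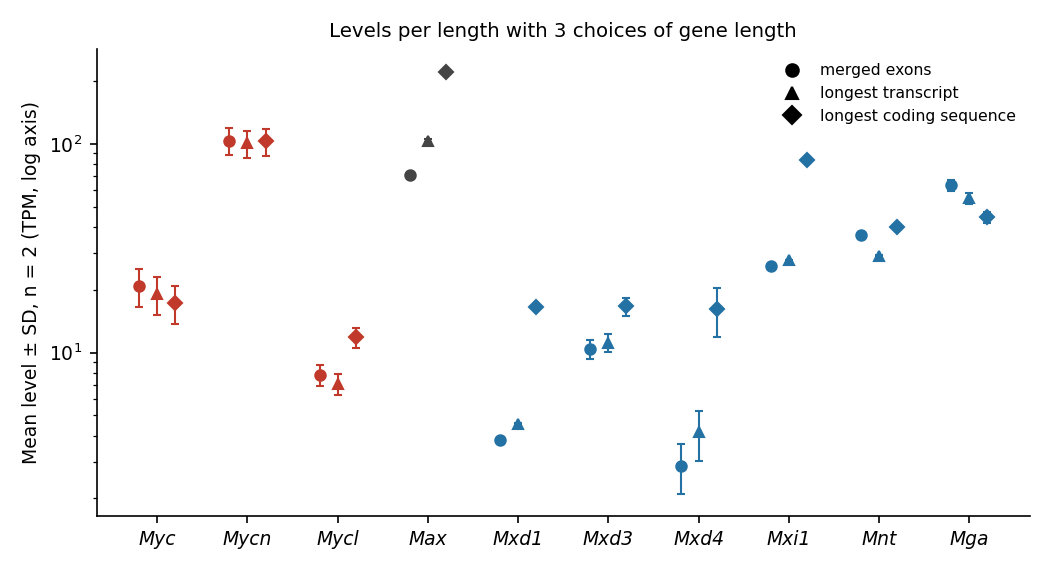
Mean level ± SD over the 2 libraries (TPM, log axis) with merged exons (circles), the longest transcript (triangles) and the longest coding sequence (diamonds) as gene length. Max lies at 71.0, 103.5 and 221 TPM, whereas Mycn stays between 100.4 and 104 TPM.

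Promoter sequences were searched for the network's own motif. RefSeq promoter windows (GRCm38.p6, 250 bases before to 50 after a gene's start) were held for 9 of the 10 members, all but Myc. The E-box searched was CACGTG, which reads the same on both strands. It was present in 3 of 9 members, Max, Mxd4 and Mnt, and in 8.09% of the 27025 genes of the table. Counted from the RefSeq start of each window, which can differ from the GENCODE positions given above, it began at -3 in Max, at -219 in Mxd4 and at -123 in Mnt. The 3 windows are shown because they place the motif in the partner and in a pair of antagonists, with the E-box in capitals.
Max, chr12:76962226-76962271, minus strand: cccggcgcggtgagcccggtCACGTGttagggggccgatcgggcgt
Mxd4, chr5:34187904-34187949, minus strand: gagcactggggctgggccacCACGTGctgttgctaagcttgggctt
Mnt, chr11:74830781-74830826, plus strand: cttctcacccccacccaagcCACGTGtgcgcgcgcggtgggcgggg
Their levels ran from Mxd4 at 2.87 ± 0.783 TPM through Mnt at 36.7 ± 0.148 TPM to Max at 71.0 ± 1.47 TPM. A match is a description of the letters and not a bound site.

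Because Argonaute proteins act through microRNA seeds, the longest annotated 3′ UTR of each of the 10 members was searched for the 7 bases complementary to the seed (bases 2 to 8) of 7 microRNAs. Mature sequences are from RefSeq (GRCm38.p6), and those with a site in Mycn are shown first, followed by let-7a, with seeds in capitals.
mmu-miR-34a-5p: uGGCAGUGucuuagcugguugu
mmu-miR-19b-3p: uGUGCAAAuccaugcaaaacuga
mmu-miR-294-3p: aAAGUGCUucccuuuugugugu
mmu-miR-17-5p: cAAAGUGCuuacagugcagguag
mmu-let-7a-5p: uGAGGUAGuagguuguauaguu
miR-294 belongs to the cluster that dominates the microRNAs of mouse embryonic stem cells, miR-17 and miR-19b to a cluster that Myc is known to induce, miR-34a to those induced by p53, and let-7a to those that accumulate with differentiation. The seeds of miR-294 and miR-17 share 6 bases at an offset of 1, so a site of one can overlap a site of the other.

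Mycn, the most abundant paralog, had a site for 4 of the 7 in a 3′ UTR of 913 bases. The sites are shown with 12 bases before and 11 after, the match in capitals, and positions counted from the first base of the UTR.
miR-34a, 21 to 27: cacacggacagtCACTGCCactttgcacat
miR-19b, 30 to 36: agtcactgccacTTTGCACattttgatttt
miR-294, 860 to 866: gctgcaccttagAGCACTTtgaaatacctc
miR-17, 861 to 867: ctgcaccttagaGCACTTTgaaatacctca
The last pair overlaps and marks 1 stretch of RNA. Of 3′ UTRs of like length (0.8 to 1.25 times), 10.9% held a miR-34a site, 10.7% a miR-19b site, 9.35% a miR-294 site and 7.24% a miR-17 site. Mycn was also the member whose level was the highest with merged exons, and whether its sites bear on that level was not tested.

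The 3′ UTRs of Myc (466 bases) and Max (1299 bases) held no site of the 7, and that of Mycl (1970 bases) held 1, for miR-19b. The kinds of site found in Mycn were not particular to it. Sites for miR-34a were also in Mxd4, Mxi1 and Mnt (4 members, against 14.3% of all 3′ UTRs). Of UTRs of like length 28.5% held one for Mxd4, 33.4% for Mxi1 and 24.0% for Mnt. Those for miR-17 were also in Mxi1, Mnt and Mga (4 members, against 11.8%). Sites for miR-19b were also in Mycl, Mxd4, Mnt and Mga (5 members, against 11.4% of all 3′ UTRs). Of UTRs of like length 14.8% held one for Mycl, 23.1% for Mxd4, 18.3% for Mnt and 32.7% for Mga. Sites for miR-294 were found in 6 members, Mycn, Mxd1, Mxd3, Mnt, Mxi1 with 2 and Mga with 3, against 14.7% of all 3′ UTRs. Several of these UTRs are long, and of UTRs of like length 44.0% held at least 1 for Mga (4616 bases), 37.8% for Mxi1, 35.8% for Mxd1, 26.3% for Mnt and 5.89% for Mxd3. The let-7a site occurred in Mxd1 alone among the 10, against 20.9% of UTRs of like length and 9.02% of all 3′ UTRs. None of the 10 held a miR-92a site, against 6.55% of all 3′ UTRs. Mxi1, Mnt and Mxd3 each had 1 site for miR-24. Of UTRs of like length 37.0% held one for Mxi1, 26.2% for Mnt and 9.33% for Mxd3, and of all 3′ UTRs 16.2%.

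The libraries were next set against each other, with replicate 2 over replicate 1. A two-sided exact binomial test of each gene's counts, adjusted over 19078 genes with at least 10 counts, called 4 of 10 members at 0.05, against 24.2% of all genes tested. All 10 members have over 100 counts. Among genes with at least 100 counts the test called 4606 of 13553, a larger share. The shares over all genes given here and below take in genes with fewer counts. Myc, Mycn and Mga were higher in replicate 2, where 11.2% of genes were called higher, and Mxd4 was lower, where 13.1% were called lower. The test sets the reads of 2 libraries against counting error alone and does not compare conditions. edgeR's exact test, with a dispersion estimated from both libraries as 1 group, called 0 of 10 members and 0.456% of all genes. With no adjustment this exact test put 1 member under 0.05, Mycn (p = 0.0316), and 860 of all genes (4.51%).

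For Myc the log2 ratio was 0.42 ± 0.08 (counting SE; binomial adjusted p = 1.96e-06; edgeR adjusted p = 1). For Mycn it was 0.30 ± 0.03 (5.64e-19 and 0.939 by the same tests), and both paralogs stood higher in replicate 2 with intervals that do not overlap. Mxd4 had a log2 ratio of -0.56 ± 0.12 (7.43e-05 and 1), and Mga of 0.13 ± 0.02 (1.44e-09 and 1). Among 13553 genes with at least 100 counts, the median absolute log2 ratio was 0.12. A log2 ratio as large as that of Mycn was found in 15.7% of them, as that of Myc in 8.91% and as that of Mxd4 in 5.19%.

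The other 6 members were not called. Mycl had a log2 ratio of -0.23 ± 0.11 (adjusted p = 0.109) and Mxd3 of -0.21 ± 0.12 (adjusted p = 0.226). Max was at -0.04 ± 0.04, Mnt at 0.01 ± 0.05, Mxd1 at 0.01 ± 0.12 and Mxi1 at 0.00 ± 0.05. Across genes the ratio went with GC content (Spearman rho of -0.19, genes not being independent replicates). With that trend and the length trend removed the same 4 members were called, against 21.3% of all genes, with log2 ratios of 0.47 for Myc, 0.37 for Mycn, -0.54 for Mxd4 and 0.06 for Mga. The value for Mga, 0.06 against 0.13, moved by over 1.5 times. That for Mnt went from 0.01 to 0.12 and stayed short of a call (binomial adjusted p = 0.0541).

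**Figure D4:**
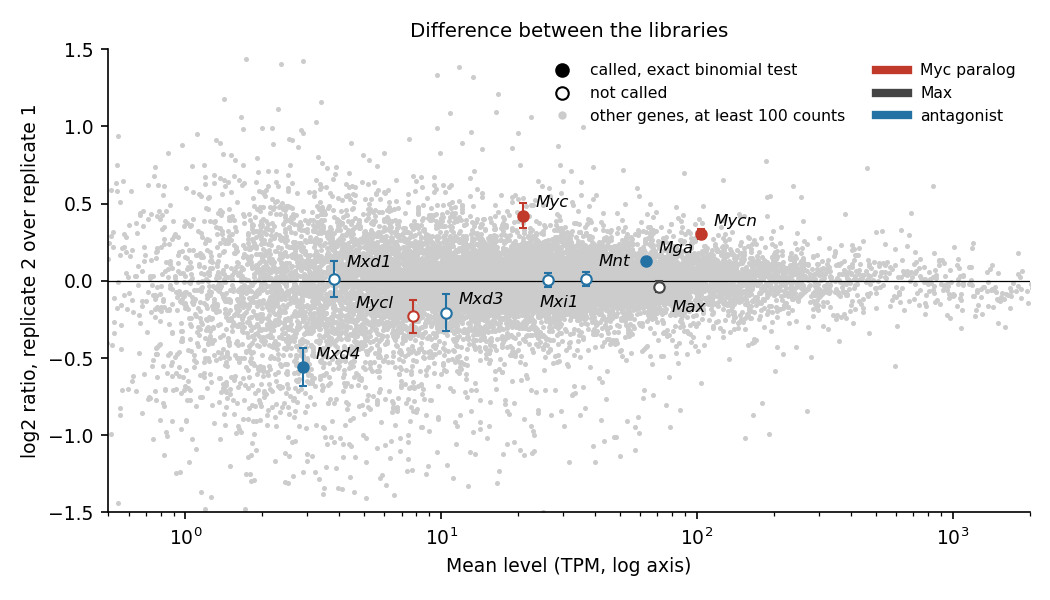
Log2 ratio of replicate 2 over replicate 1 against the mean level (TPM, log axis) for the network genes, with counting SE, over the genes with at least 100 counts that lie within the plotted range (light grey). Filled points were called by the exact binomial test: Myc at 0.42, Mycn at 0.30 and Mga at 0.13 above 0, and Mxd4 at -0.56 below.

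The neighbouring Mlx branch, in which MLX takes the place of MAX and pairs with the glucose-responsive factors MLXIP and MLXIPL and also with MNT, MXD1 and MXD4, was expressed as well. Mlx had 61.4 TPM in replicate 2 and 55.7 TPM in replicate 1, Mlxip 15.1 TPM in replicate 2 and 16.3 TPM in replicate 1, and Mlxipl 3.45 TPM in replicate 2 and 6.07 TPM in replicate 1. The binomial test called Mlx higher (adjusted p = 0.0413) and Mlxipl lower in replicate 2 (log2 ratio of -0.81, adjusted p = 4.48e-10). That is 1 of 3 genes each way, against 11.2% higher and 13.1% lower over all genes. edgeR's exact test called 0 of 3, against 0.456% of all genes. By that test Mlxipl alone was at an unadjusted p under 0.05, against 4.51% of all genes. For Mlx, 15.8% of the 50-base stretches also occur in other genes.

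The cofactors that act with these proteins were all expressed. Of 14 co-activator genes, Wdr5 (259 ± 4.28 TPM), Ruvbl1 (236 ± 3.71 TPM, with 49.4% of its 50-base stretches shared with other genes) and Ruvbl2 (199 ± 9.67 TPM) were the highest, and Trrap, the large scaffold that MYC binds, the lowest (26.9 ± 1.27 TPM; SD, n = 2, here and for the lists that follow). The binomial test called 0 higher and 4 lower (28.6%) in replicate 2, among them Trrap, Kat2a and Ruvbl2, against 11.2% higher and 13.1% lower over all genes. With the GC and length trends removed it called 2 higher, Kat5 and Ep300, and 0 lower, against 10.8% and 10.4% of all genes, so the direction of this group was not kept. Of 10 genes of the SIN3 and NCOR co-repressors, which serve the antagonists, Rbbp7 (324 ± 20.2 TPM), Hdac1 (198 ± 4.85 TPM, 35.5% shared) and Sin3a (126 ± 0.0926 TPM) were the highest and Suds3 the lowest (24.9 ± 0.705 TPM), with 2 called higher, Rbbp7 and Sap30, and 2 lower, among them Sin3b (2 of 10 each way, against 11.2% higher and 13.1% lower over all genes). The medians of the log2 ratio were -0.03 for co-activators and -0.02 for co-repressors, against -0.01 over all genes tested.

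Other DNA-bound partners of MYC gave 1 higher (Nfya) and 2 lower calls (Hcfc1 and Sp1) among 6 genes, against 11.2 and 13.1% of all genes, and the call of Hcfc1 was lost with the trends removed. Their highest were Hcfc1 (176 ± 6.57 TPM), Sp1 (122 ± 3.42 TPM) and Nfyc (54.7 ± 1.53 TPM, 22.2% shared). Zbtb17, which encodes MIZ1, a factor through which MYC represses genes, was the lowest of them at 24.1 ± 1.47 TPM. Genes of MYC protein turnover gave 2 higher (among them Skp2; 14.3%) and 1 lower (Aurka; 7.14%) among 14, near the 11.2 and 13.1% of all genes, or 3 and 2 with the trends removed. Usp7 (222 ± 2.42 TPM), Plk1 (141 ± 2.76 TPM) and Usp28 (129 ± 2.9 TPM) were the highest, and Fbxw7, the ubiquitin ligase subunit that marks phosphorylated MYC, the lowest (15.0 ± 1.0 TPM). edgeR's exact test called 0 genes in these 4 groups. It put 1 of them, the co-repressor gene Sap30, at an unadjusted p under 0.05, against 4.51% of all genes.

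MGA and MAX also belong to a variant Polycomb complex, PRC1.6, whose other subunits were all expressed. The highest of 13 were Wdr5, Hdac1 (both also in a list above) and Cbx1 (179.8 ± 0.792 TPM), and the lowest was Ring1, a catalytic subunit (5.43 ± 0.0187 TPM). The binomial test called 4 higher (E2f6, Tfdp1, Rnf2 and Rybp; 30.8%) and 1 lower (L3mbtl2; 7.69%), against 11.2 and 13.1% of all genes, the median log2 ratio was 0.04, and edgeR's exact test called 0, with 0 at an unadjusted p under 0.05. With the trends removed the counts were 2 higher and 2 lower, against 10.8 and 10.4% of all genes.

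Germ cell genes known as targets of this complex had the lowest median ratio of the lists examined. Of 15 such genes, 11 reached 1 CPM in both libraries, and the binomial test called 1 higher (6.67%) and 8 lower (53.3%), against the 11.2 and 13.1% of all genes. The median log2 ratio was -0.40, against -0.01 over all genes, and with the trends removed it was -0.46 with 0 called higher and 10 lower, against 10.8 and 10.4% of all genes. edgeR's exact test called 2 of 15, both lower, against 0.456% of all genes. It put 5 at an unadjusted p under 0.05, against 4.51% of all genes. That germ cell genes differ between these libraries was known when the list was chosen, so the counts are a description. The difference lies between libraries of the same genotype, and no relation to the level of Mga or Max was tested.

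Stra8, the retinoic acid response gene that gates meiosis, had 10.2 TPM in replicate 2 and 32.4 TPM in replicate 1 (199 counts in replicate 2 and 736 in replicate 1). Its log2 ratio was -1.66 ± 0.12 (binomial adjusted p = 6.75e-54; edgeR adjusted p = 2.10e-07). Tuba3a, a testis tubulin gene and the highest of the list, had 193 TPM in replicate 2 and 347 TPM in replicate 1, a log2 ratio of -0.84 ± 0.03 (edgeR adjusted p = 1.91e-06), but 35.3% of its stretches are shared with other genes. Sycp3, of the synaptonemal complex, was the 1 gene called higher, at 37.3 TPM in replicate 2 and 31.8 TPM in replicate 1, and 43.0% of its stretches are shared. Smc1b, a meiotic cohesin gene with no shared stretch, had 27.4 TPM in replicate 2 and 36.2 TPM in replicate 1 and a log2 ratio of -0.40 ± 0.05. The lowest of the list was Tex101, at 0.223 TPM (4 counts) in replicate 2 and 0.431 TPM (9 counts) in replicate 1.

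Genes known as MYC targets were all expressed, 24 of 24. The highest were Npm1, a nucleolar chaperone, at 2754 ± 25.9 TPM, Hspd1, a mitochondrial chaperonin, at 1419.5 ± 66.9 TPM, and Ldha, lactate dehydrogenase A, at 1083 ± 104 TPM. Other genes share 24.3% of the stretches of Npm1 and 42.1% of those of Hspd1, so these levels are uncertain. The lowest was Tert, the telomerase catalytic subunit, at 7.86 ± 0.681 TPM. The binomial test called 8 higher (33.3%) and 5 lower (20.8%), against 11.2 and 13.1% of all genes. With the trends removed it called 8 higher and 4 lower, against 10.8 and 10.4% of all genes, but not the same genes. Cad, Srm and Prmt5 lost their lower calls, while Npm1 and Tfrc gained them. Eif4e lost a higher call and Slc7a5 gained one. Deeply counted genes are called on smaller differences, and the list's log2 ratios stayed between -0.19 for Ldha and 0.28 for Odc1, the rate-limiting enzyme of polyamine synthesis (24.3% shared). The median was 0.01, against -0.01 over all genes. edgeR's exact test called 0 of 24, with Odc1 and Nop58 at an unadjusted p under 0.05, against 4.51% of all genes.

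Of 13 regulators upstream of Myc and Mycn, 8 were called higher (61.5%) and 1 lower (7.69%) in replicate 2, against 11.2% higher and 13.1% lower over all genes. All 13 are deeply counted. Of 13553 genes with at least 100 counts, the binomial test called 2175 higher and 2431 lower. With the trends removed 10 of the 13 regulators were called higher and 0 lower, against 10.8% and 10.4% of all genes. Their differences were small: the median log2 ratio was 0.08, the range ran from -0.18 for Klf4, a pluripotency factor, to 0.17 for Lifr, the LIF receptor, and edgeR's exact test called 0, with 0 at an unadjusted p under 0.05. The highest were Hnrnpk (434 ± 21.9 TPM), Ctnnb1, which encodes beta-catenin (430.4 ± 13.3 TPM), and Cnbp (375 ± 22.6 TPM), and the lowest was Tcf7l1 (25.5 ± 0.0223 TPM). Klf4 was the 1 gene called lower, and it was not called with the trends removed (adjusted p = 0.079).

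**Figure D5:**
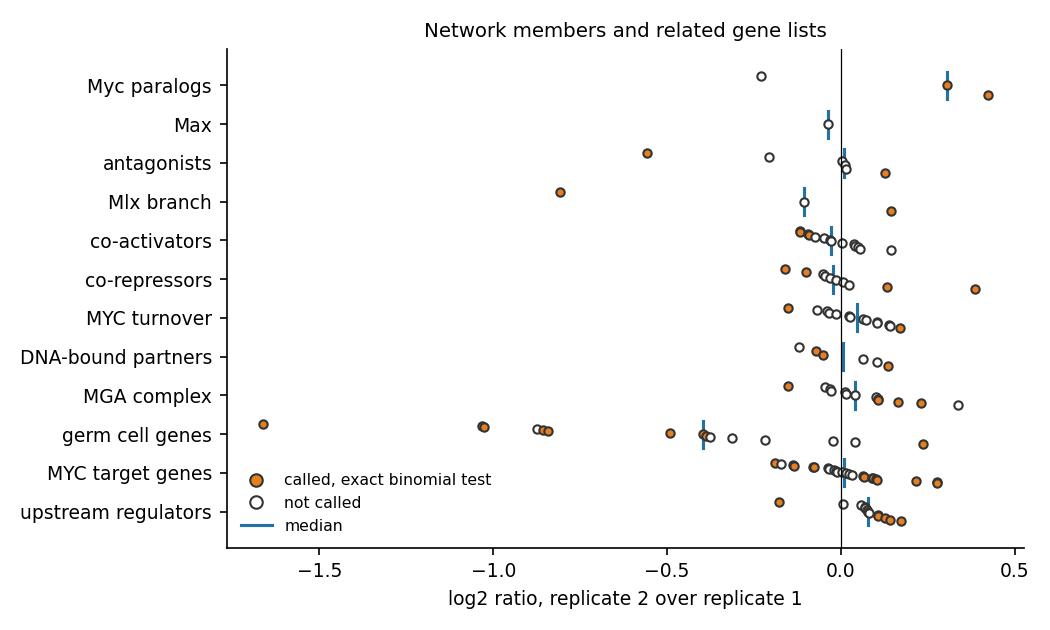
Log2 ratio of replicate 2 over replicate 1 for each tested gene of the network and of the related lists, with filled points called by the exact binomial test and a line at each list's median. The germ cell genes spread furthest to the left, with Stra8 at -1.66 and a median of -0.40, while the MYC target genes lie between -0.19 and 0.28.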

How the data were processed

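Levels and library differences were computed from raw read counts per Ensembl gene, which the authors deposited as 1 whole-number table per library. The aligner STAR (version 2.4.2a) and the build mm10, also called GRCm38, are named in the submitters' processing notes. A reverse-stranded TruSeq preparation with an input of 1 ug of total RNA is given per the labels' protocols. How reads were counted per gene, with which tool, strand setting and treatment of multi-mapping reads, is not given in the sources used here.

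Of 47643 IDs, 47224 were named with GENCODE M21 (GRCm38), which also gave positions, lengths, GC content and 3′ UTRs. CPM used the total of gene counts, and TPM merged exon lengths. At 3 counts, the limit that a count of 0 allows was 0.101 CPM in replicate 2 and 0.0862 CPM in replicate 1. Intervals (95%, exact Poisson and Clopper-Pearson) and this limit cover counting error only, since no molecular identifiers are stated, and SDs over the 2 libraries measure a spread that may be technical.

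With 1 genotype no test between conditions was possible. Library differences used a two-sided exact binomial test at library sizes scaled by TMM (factors 1.00 in replicate 2 and 0.999 in replicate 1), adjusted by Benjamini-Hochberg across the genes holding 10 counts or more, and log2 ratios with a pseudocount of 0.5 counts. As alternatives, edgeR 4.0.16's exact test took its trended dispersion from both libraries as 1 group (common biological coefficient of variation 9.99%), which holds the differences it is set against; DESeq2 1.42.0 size factors, unscaled totals, other count filters, pseudocounts, expression levels and gene lengths were tried, and the trend of the ratio on GC content and length was removed by lowess (fraction 0.3). R 4.3.3, Python 3.11.15, SciPy 1.17.1 and statsmodels 0.14.6 were used. Both tests were run on simulated data, where an outcome was required only of the binomial test with sampling noise alone. That run is no check of edgeR's exact test, or of either test under added spread.

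The members, lists and markers were chosen with earlier results of these data known. Named are all members, the 3 highest and the lowest gene of each list by mean TPM, and genes called by both tests; Thy1 and other list genes are named because they were called or lay at the end of a range, chosen after their values were seen, and Rcl1 was taken off the MYC target list then, because it is not the target meant. Some genes of the lists are counted but not reported here by name.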

Additional observations from a re-analysis of the deposited data

How the results depend on the processing

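The 4 members called (Myc, Mycn, Mga and Mxd4) were called under DESeq2 size factors, unscaled totals, both other count filters and removal of the GC and length trends, and 0 were called by edgeR's exact test. Of the alternative log2 ratios of single members, 65 kept their direction and their side of the threshold, 4 lost their call (all in edgeR's exact test), and 1 changed sign without ever being called, that of Mxi1, at -0.017 with the trends removed. Most of these settings could hardly change the outcome, so the tally is a weak check. The count filters leave each ratio as it was, library scaling shifts all genes nearly alike, and the pseudocount does not enter the binomial test. The ratio of paralogs to antagonists, 0.921 with merged exons, was 0.607 with coding length, 0.307 in CPM and 1.66 without Mga. The share of Myc among the paralogs, 15.7%, was 13.1% with coding length and 13.1% in CPM. The share of Mycn, 78.3%, was 79.3% with the longest transcript, 77.8% with coding length and 79.4% in CPM; these settings for Mycn were chosen after seeing the data. All 10 members passed 5 CPM, and all 10 passed 1 TPM, in both libraries. Under alternative settings 14 levels moved by more than 1 SD, all with another gene length, and 26 did not; with 2 libraries this SD is itself uncertain. Leaving out a library keeps each level within 1 SD of the mean by construction, and the library comparison cannot be made without both. At this depth Mxd1, Mxd3, Mxd4 and Mycl rest on 213 to 428 counts per library, with counting SEs of 0.11 to 0.12 on the log2 scale.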
